A study of Mus musculus with 12 samples.

Results

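The genes described here are *Wnt5a*, *Wnt5b*, *Ror1*, *Ror2*, *Kif26a*, *Kif26b*, *Vangl1*, *Vangl2*, *Prickle1*, and *Prickle2*, 10 of the 51490 genes in the count table, taken by their symbols. They form the Wnt5a-Ror-Kif26b pathway and the planar polarity genes around it, and the set was chosen by the strong decrease of *Kif26b* with *Srsf3* knockdown. That decrease is therefore a description without a test, and *Kif26b* enters no count of members between shSrsf3 and scramble samples. The values of the other 9 members were not part of the stated choice, although the choice was made with earlier results of these data known.

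RNA-seq was performed on iMEPM cells, an immortalized line of palatal mesenchyme from a male mouse embryo lacking both copies of *Cdkn2a*, an allele combination (Cdkn2a-/-) that all samples share. Cells carried a lentiviral scramble shRNA (scramble) or an shRNA against the 3’ UTR of *Srsf3* (shSrsf3), which encodes a splicing factor of the SR family. After serum starvation, cells of each line were left unstimulated (-PDGF-AA) or received 10 ng/mL PDGF-AA ligand for 1 hour (+PDGF-AA). There were 3 biological replicates in each of the 4 conditions, 12 samples in all. Each shRNA was represented by a single stable line, sorted for high GFP expression, so that the knockdown and the line cannot be told apart. The replicates are cultures of these lines, so that p-values measure the spread between cultures.

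Wnt5a and Wnt5b are secreted ligands that act largely without β-catenin. In the best-described branch of this pathway, Wnt5a binds the receptor tyrosine kinase-like proteins Ror1 and Ror2 and thereby controls the abundance of Kif26b protein. Kif26b is an atypical kinesin linked to cell adhesion and migration, and only its RNA is described here. Vangl and Prickle proteins belong to the core planar cell polarity machinery, which orients cells within the plane of a tissue. Mouse embryos without *Wnt5a* or *Ror2* have cleft palate, which ties the pathway to the tissue from which these cells were derived.

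The total count per sample was between 30958966 and 76123359, and the 3 shSrsf3 +PDGF-AA samples, at 30958966 to 37334733, were among the 4 of lowest depth. *Srsf3* itself was at 199 to 212 CPM (counts relative to library size, adjusted by the trimmed mean of M-values) in scramble -PDGF-AA samples and at 161 to 164 CPM in shSrsf3 -PDGF-AA samples. With ligand it was at 215 to 231 CPM in scramble samples and 161 to 169.5 CPM in shSrsf3 samples. The groups did not overlap in either condition, and the log2 fold change of *Srsf3* was -0.34 ± 0.0379 (SE) and -0.43 ± 0.0380 (edgeR adjusted p = 7.95e-06 and 9.54e-07). The 10 mesenchymal markers summed to 35279 to 37065 CPM in scramble and 31624 to 33755 CPM in shSrsf3 samples without ligand, and to 35657 to 36251 and 31556 to 33834 CPM with ligand. These sums were mostly *Col1a1* (16222 to 18359 CPM over all samples), *Col1a2* (9075 to 13246 CPM), and *Vim* (4216 to 5224 CPM). The scarcest of the 10 were *Osr2*, at 2.30 to 5.91 CPM, and *Msx1*, at 0.547 to 1.81 CPM. Of the 7 epithelial, 4 endothelial, 3 blood and immune, 4 neural, and 3 muscle markers, 5, 3, 2, 2, and 3 stayed under 1 CPM in every sample, and *Tie1*, *Sox10*, and *Myod1* had no count. The endothelial sum was 0.727 to 1.22 CPM in scramble and 2.14 to 2.70 CPM in shSrsf3 samples, and the neural sum, nearly all *Tubb3*, was 28.3 to 31.5 and 20.1 to 24.7 CPM. The epithelial sum was 4.97 to 6.24 CPM in scramble and 2.99 to 4.25 CPM in shSrsf3 samples. The part of these shifts in the results below was not tested.

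*Kif26b* and *Wnt5b*, the members with the largest decreases, are shown by the 250 bases before an annotated transcription start, so that the sequence content of both promoters can be read beside their values. The sequences are from RefSeq on GRCm38.p6, which listed 14 starts for 8 of the 10 members. Matches to 4 short motifs, searched on both strands, are in capitals. The core of the TCF/LEF motif was taken as CTTTGA. The TATA box was taken as TATAAA and the GC box as GGGCGG. The CCAAT box was searched by the letters of its name. None of these can lie within another.
*Kif26b*, chr1:178528875-178529124, + strand: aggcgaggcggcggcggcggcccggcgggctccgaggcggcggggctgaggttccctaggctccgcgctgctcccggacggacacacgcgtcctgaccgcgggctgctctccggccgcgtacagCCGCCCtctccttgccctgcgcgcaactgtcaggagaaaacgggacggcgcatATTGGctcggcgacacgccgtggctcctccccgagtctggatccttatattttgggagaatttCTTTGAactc
*Wnt5b*, chr6:119544348-119544597, - strand: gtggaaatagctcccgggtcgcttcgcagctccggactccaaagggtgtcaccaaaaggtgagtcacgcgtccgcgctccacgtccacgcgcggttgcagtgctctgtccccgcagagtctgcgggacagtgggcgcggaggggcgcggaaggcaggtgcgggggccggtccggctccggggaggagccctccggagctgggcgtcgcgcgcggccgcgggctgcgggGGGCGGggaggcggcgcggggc
The *Kif26b* promoter held 1 GC box and 1 CCAAT box, each on the opposite strand, and 1 TCF/LEF core. The *Wnt5b* promoter shown held 1 GC box and none of the other motifs. Of all 32851 promoters of this length, 32.7% held a GC box, 33.8% a CCAAT box, 13.8% a TCF/LEF core, and 12.4% a TATA box. Both promoters were rich in CpG, with 32 CpG dinucleotides for *Kif26b* and 35 for *Wnt5b* against a median of 6 over all promoters. The other 2 starts listed for *Wnt5b* had 4 and 7 CpG dinucleotides. The former held none of the motifs and the latter 1 TCF/LEF core and 2 GC boxes, and gene-level counts do not tell which start was in use. The promoters of *Prickle1*, *Ror2*, *Kif26a*, and *Vangl2*, whose RNA differed less or could not be tested, were at up to 34, 24, 19, and 18 CpG dinucleotides, that of *Ror1* was at 8, and the 4 listed for *Prickle2* were at 4 to 18.

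Among the 10 genes, *Ror2* RNA was the most abundant per transcript length in all 4 conditions and *Wnt5a* RNA came next. In scramble -PDGF-AA samples, *Ror2* was at 13.2 ± 0.383 CPM per kb of its canonical transcript (SD, n = 3) and *Wnt5a* at 8.08 ± 0.218 CPM per kb. *Kif26b* followed at 6.47 ± 0.388 and *Prickle1* at 5.68 ± 0.112 CPM per kb. Each of these 4 was separated from the next by the range of its 3 samples. *Vangl2* and *Vangl1* were then at 4.299 ± 0.296 and 4.27 ± 0.211 CPM per kb with overlapping ranges. *Wnt5b* was at 2.17 ± 0.396 and *Ror1* at 1.66 ± 0.115 CPM per kb, also overlapping, and *Prickle2* at 1.09 ± 0.0587 CPM per kb. *Kif26a* was last at 0.00427 ± 0.00217 CPM per kb. With the union of exons as the length in place of the canonical transcript, *Prickle1* and *Vangl2* changed places in these scramble -PDGF-AA samples, as did *Wnt5b* and *Ror1*. The cells thus held one predominant ligand RNA, *Wnt5a*, and one predominant Ror receptor RNA, *Ror2*, while the Vangl paralogs were nearly level.

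**Figure D1:**
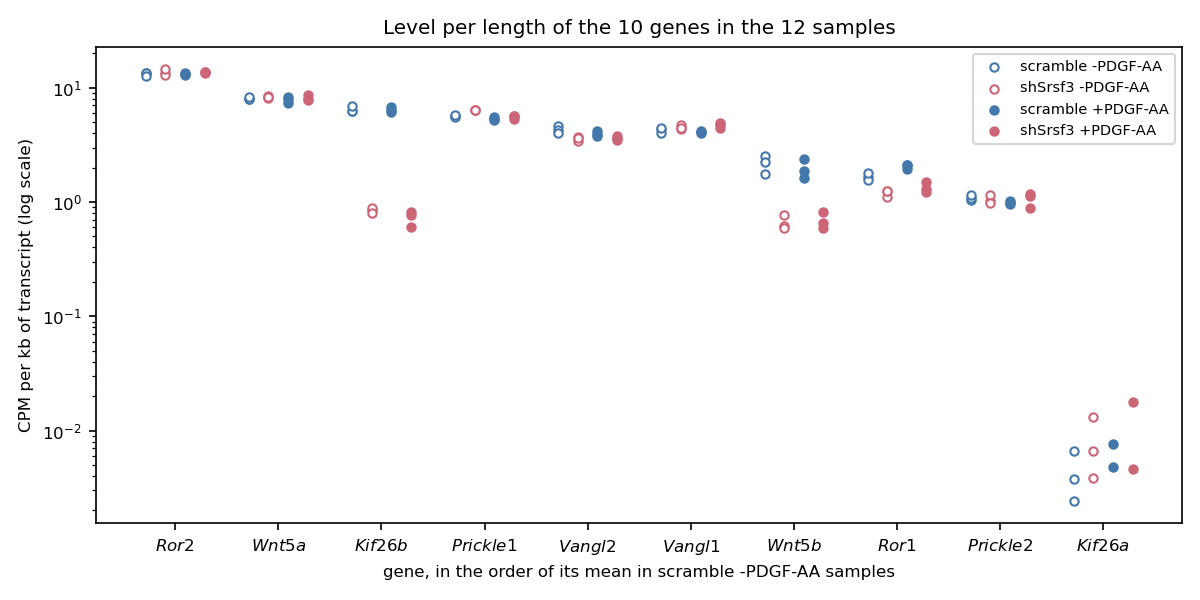
Level per length of the 10 genes in the 12 samples, as CPM per kb of canonical transcript on a log scale, ordered by the mean in scramble -PDGF-AA samples; each point is 1 sample, and the 2 *Kif26a* values of 0 are not drawn. *Kif26b* and *Wnt5b* drop in both sets of shSrsf3 samples, and *Ror2* and *Wnt5a* stay at the top.

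In shSrsf3 -PDGF-AA samples the order from the top was *Ror2* (13.7 ± 0.892 CPM per kb), *Wnt5a* (8.29 ± 0.209), *Prickle1* (6.39 ± 0.0372), *Vangl1* (4.52 ± 0.157), and *Vangl2* (3.59 ± 0.132). *Ror1* (1.20 ± 0.0892 CPM per kb) and *Prickle2* (1.05 ± 0.0816) overlapped, and *Kif26b*, now in place 8, was at 0.847 ± 0.0449 CPM per kb. With ligand, scramble samples had the order of unstimulated scramble samples except within the Vangl pair and the pair of *Wnt5b* and *Ror1*, and in both pairs the ranges overlapped. In shSrsf3 +PDGF-AA samples *Kif26b* was again in place 8, at 0.730 ± 0.112 CPM per kb, and its range overlapped that of *Wnt5b* (0.689 ± 0.109 CPM per kb).

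*Kif26b*, the kinesin gene for which the set was named, lies at chr1:178356690-178766765 (+ strand, GRCm39), spans 410.1 kb with 15 exons in its canonical transcript, and has the longest transcript of the set, at 13749 bases. Without ligand it was at 86.5, 85.4, and 95.1 CPM in scramble replicates 1 to 3 and at 11.7, 12.2, and 11.01 CPM in shSrsf3 replicates 1 to 3. With ligand it was at 88.5, 93.3, and 84.3 CPM in scramble and 10.6, 11.2, and 8.30 CPM in shSrsf3 replicates. Every shSrsf3 sample was far under every scramble sample. The mean was 7.64-fold lower in shSrsf3 samples without ligand and 8.83-fold lower with ligand, with log2 fold changes of -2.93 ± 0.0833 and -3.14 ± 0.0875 (SE), given as the values on which the set was chosen. Of the 12262 tested genes with a mean count of at least 50, 10 and 8 fell further, as *Kif26b* was in place 11 without and place 9 with ligand among the decreases. Even in shSrsf3 samples, 258 to 903 read pairs per sample were counted for *Kif26b*, so that its RNA was not lost. In bulk RNA, fewer cells with *Kif26b* RNA and less of it per cell cannot be told apart.

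The genes around *Kif26b* did not share its decrease. Of the 11 tested genes within 1 Mb of *Kif26b* on either side, 3 passed an adjusted p of 0.05 without ligand and 2 with ligand. Of all 15037 genes tested, 45.9% and 41% passed. Of the 11, 0 were DE (adjusted p of 0.05 or less and a change of at least 2-fold), beside 5.75% and 5.42% of all genes. With so few neighbours, 0 is little different from that share. The log2 fold changes of the 11 genes were between -0.20 and 0.30 without ligand and between -0.44 and 0.44 with ligand. *Hnrnpu*, *Smyd3*, and *Tfb2m*, the 3 that passed without ligand, were named after their values were seen and stood at -0.16, 0.30, and -0.20. Of the sequences of 31 bases in *Kif26b* transcripts, 0.0273% also occur in transcripts of another gene. Several noncoding genes overlap *Kif26b* on both strands, 3 of them on its own strand, and reads from these could be counted for either gene.

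*Kif26a*, the paralog of *Kif26b*, was all but absent. Its counts were 1, 2, and 1 in scramble and 7, 3, and 1 in shSrsf3 replicates without ligand, and 2, 3, and 0 in scramble and 0, 4, and 1 in shSrsf3 replicates with ligand. These counts are near 3 counts per library, the level that a count of 0 allows, which corresponded to 0.0388 to 0.0966 CPM, so that no difference between the groups was detectable at this depth. *Kif26a* did not pass the filter for low counts and was not tested. A rise of *Kif26a* RNA toward the level that *Kif26b* had in scramble cells was not seen, since its highest value in any sample was 0.124 CPM.

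*Wnt5b*, the less abundant of both ligand genes (chr6:119409323-119521897, - strand, GRCm39), was lower in shSrsf3 cells in both conditions. It was at 6.42, 5.66, and 4.43 CPM in scramble and 1.57, 1.503, and 1.96 CPM in shSrsf3 replicates 1 to 3 without ligand. With ligand it was at 4.73, 6.06, and 4.16 CPM in scramble and 2.06, 1.52, and 1.67 CPM in shSrsf3 replicates. The groups did not overlap, and the lowest scramble value was above the highest shSrsf3 value by more than the SD of either group. The mean was 3.28-fold lower without ligand (log2 fold change -1.73 ± 0.180 SE, edgeR adjusted p = 4.29e-06) and 2.85-fold lower with ligand (-1.499 ± 0.189, adjusted p = 2.64e-05). *Wnt5b* was counted at 49 to 121 read pairs per shSrsf3 sample, and the smaller counts show in SEs that are wider than for other members. Of the 16 tested genes within 1 Mb of *Wnt5b*, 8 passed an adjusted p of 0.05 without and 5 with ligand, beside 45.9% and 41% of all genes. Most of the 8 were lower in shSrsf3 samples, and *Erc1* (0.17) and *Gm16199* (0.37) were higher. The 5 were all lower, against 20.7% of all genes. Log2 fold changes of the 16 were between -0.64 and 0.37 without and between -0.61 and 0.33 with ligand. Whether this bears on the decrease of *Wnt5b* was not tested. Of the 16, 0 were DE, beside 5.75% of all genes without and 5.42% with ligand.

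*Wnt5a*, the predominant ligand gene (chr14:28226495-28249405, + strand, GRCm39), was nearly level across the study. Its values were between 53.6 and 62.6 CPM in all 12 samples, and the groups overlapped in each comparison. The log2 fold change between shSrsf3 and scramble samples was 0.036 without ligand (95% interval -0.073 to 0.15, adjusted p = 0.592) and 0.046 with ligand (-0.064 to 0.16, adjusted p = 0.509). As *Wnt5b* fell, the ratio of *Wnt5a* to *Wnt5b* per length went from 3.84 ± 0.850 in scramble to 12.7 ± 1.83 in shSrsf3 samples without ligand, and from 4.13 ± 0.877 to 11.97 ± 1.395 with ligand (SD, n = 3).

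**Figure D2:**
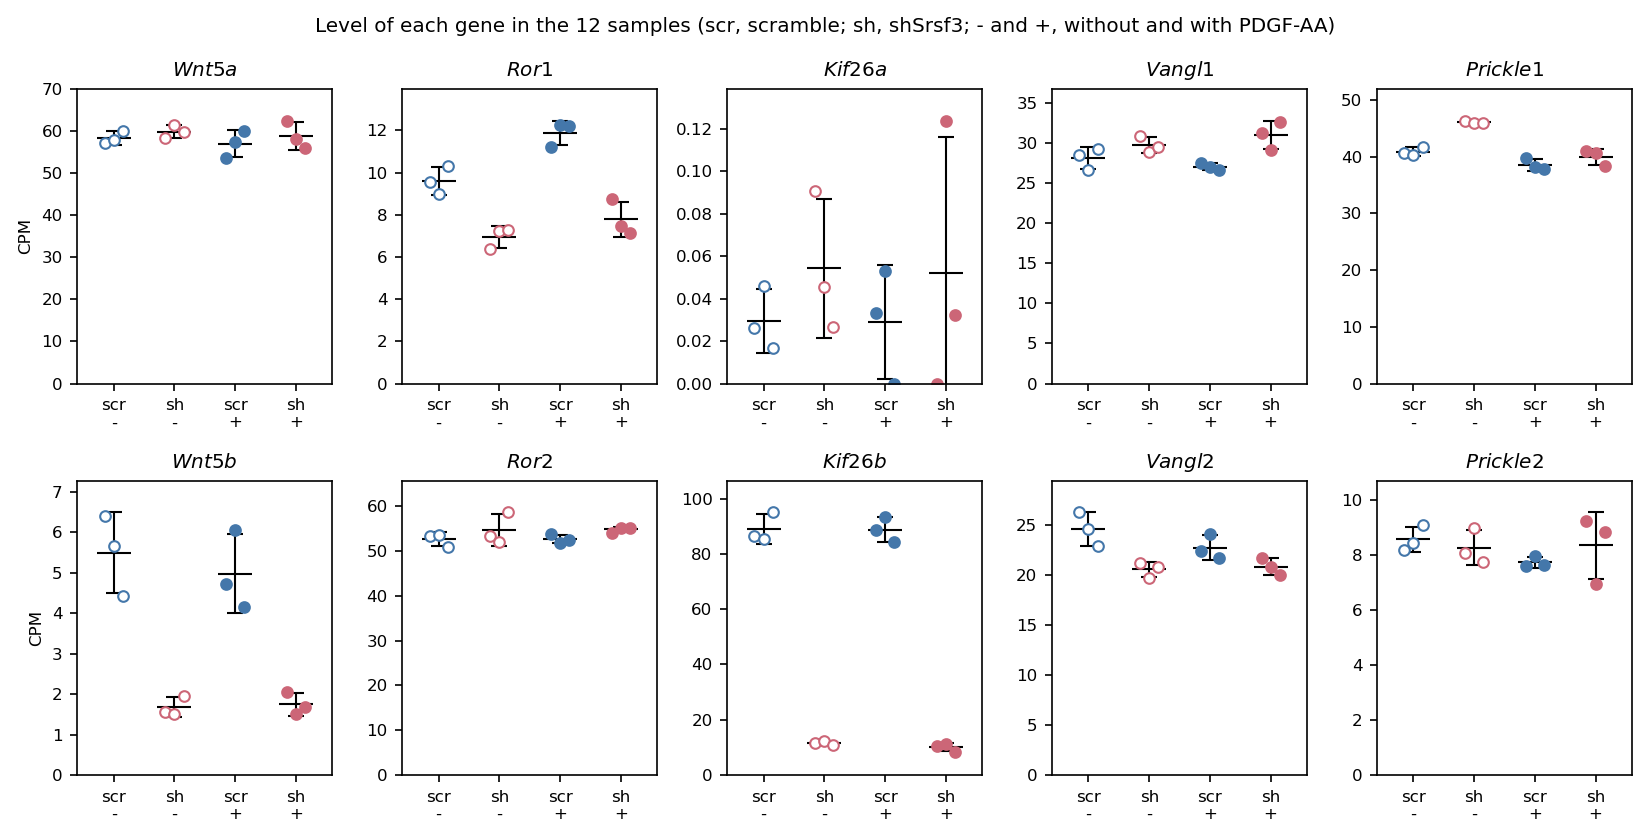
CPM of the 10 genes in each of the 12 samples, from 0 on each vertical axis, with open points without and filled points with PDGF-AA, blue for scramble and red for shSrsf3; bars are the mean and SD of 3 samples. *Kif26b*, *Wnt5b*, and *Ror1* separate the lines in both conditions, while *Wnt5a* stays between 53.6 and 62.6 CPM.

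Among the receptors, *Ror1* (chr4:99952988-100301990, + strand, GRCm39) fell modestly and *Ror2* (chr13:53263348-53440247, - strand) did not pass the test. *Ror1* was at 9.56, 8.97, and 10.3 CPM in scramble and 6.36, 7.23, and 7.28 CPM in shSrsf3 replicates without ligand. With ligand it was at 11.2, 12.2, and 12.2 CPM in scramble and 8.74, 7.46, and 7.14 CPM in shSrsf3 replicates. All shSrsf3 samples were below all scramble samples of the same condition. The log2 fold change of *Ror1* was -0.48 ± 0.0855 without ligand (SE, edgeR adjusted p = 5.09e-04) and -0.61 ± 0.0863 with ligand (adjusted p = 7.71e-05), under the 2-fold minimum. *Ror2* was between 50.9 and 58.7 CPM in all samples. Its log2 fold changes were 0.053 (95% interval -0.046 to 0.15, edgeR adjusted p = 0.374) and 0.058 (-0.041 to 0.16, adjusted p = 0.349). The groups overlapped without ligand. With ligand they did not, at 51.8 to 53.7 CPM in scramble and 54.1 to 55.2 CPM in shSrsf3 samples. The ratio of *Ror2* to *Ror1* per length was 7.99 ± 0.762 in scramble and 11.4 ± 0.911 in shSrsf3 samples without ligand, and 6.44 ± 0.435 and 10.3 ± 1.17 with ligand.

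The Vangl genes encode membrane proteins of the polarity core, and each passed the test in one condition and not in the other. *Vangl2* (chr1:171828527-171856011, - strand, GRCm39) was at 26.2, 24.6, and 22.9 CPM in scramble and 21.1, 19.7, and 20.8 CPM in shSrsf3 replicates without ligand. It was at 22.4, 24.1, and 21.7 CPM in scramble and 21.7, 20.8, and 20.0 CPM in shSrsf3 replicates with ligand. The groups were separate without ligand and overlapped with it. The log2 fold change was -0.26 ± 0.0574 without ligand (edgeR adjusted p = 0.00254) and -0.12 with ligand (95% interval -0.25 to 0.0037, adjusted p = 0.113). *Vangl1* (chr3:102060899-102112057, - strand) was at 28.4, 26.6, and 29.3 CPM in scramble and 30.9, 28.9, and 29.5 CPM in shSrsf3 replicates without ligand. It was at 27.5, 27.0, and 26.6 CPM in scramble and 31.2, 29.1, and 32.7 CPM in shSrsf3 replicates with ligand. Here the groups overlapped without ligand and were separate with it. The log2 fold change was 0.082 without ligand (95% interval -0.022 to 0.19, adjusted p = 0.184) and 0.20 ± 0.0493 with ligand (adjusted p = 0.00577). The test of the difference between both conditions did not pass for either gene (adjusted p = 0.874 for both), so that a dependence on ligand was not shown.

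*Prickle1* and *Prickle2* encode LIM domain proteins that bind Vangl proteins at the membrane. *Prickle1* (chr15:93394582-93494477, - strand, GRCm39) was at 40.7, 40.2, and 41.8 CPM in scramble and 46.4, 45.9, and 45.9 CPM in shSrsf3 replicates without ligand. With ligand it was at 39.8, 38.1, and 37.8 CPM in scramble and 40.9, 40.7, and 38.3 CPM in shSrsf3 replicates. It was thus higher in all shSrsf3 samples without ligand, and the groups overlapped with ligand. The log2 fold change was 0.17 ± 0.0378 without ligand (edgeR adjusted p = 0.00222) and 0.052 with ligand (95% interval -0.031 to 0.13, adjusted p = 0.310). *Prickle2* (chr6:92347873-92683215, - strand) was between 6.97 and 9.25 CPM in all samples and overlapped between lines in both conditions, with log2 fold changes of -0.051 (-0.25 to 0.15, adjusted p = 0.681) and 0.11 (-0.093 to 0.32, adjusted p = 0.382). Without shSrsf3 +PDGF-AA replicate 2, the lowest of its group, *Prickle2* passed with ligand (0.22, adjusted p = 0.0476).

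Counted over the 8 tested members other than *Kif26b*, 4 passed an adjusted p of 0.05 between shSrsf3 and scramble samples without ligand, against 45.9% of all 15037 genes tested. Of these, 3 were lower in shSrsf3 samples (*Wnt5b*, *Ror1*, and *Vangl2*), against 23.7% of all genes, and 1 was higher (*Prickle1*), against 22.2%. With ligand, 3 of the 8 passed, against 41% of all genes, with 2 lower (*Wnt5b* and *Ror1*) against 20.7% and 1 higher (*Vangl1*) against 20.3%. These shares are near those of all genes. In both conditions *Wnt5b* alone of the 8 was DE, against 5.75% of all genes without and 5.42% with ligand. The median log2 fold change of the 8 was -0.0076 without and 0.049 with ligand, beside -0.016 and -0.010 over all genes. Without the scramble -PDGF-AA replicates 1 and 2 and the scramble +PDGF-AA replicate 2, whose reads mapped at a lower rate in the study’s methods, 2 members remained called without ligand, *Wnt5b* and *Ror1*, while *Vangl2* had -0.16 (adjusted p = 0.0619) and *Prickle1* 0.14 (adjusted p = 0.0655). That fit had a lone scramble -PDGF-AA sample, which was assumed to vary like the other groups.

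**Figure D3:**
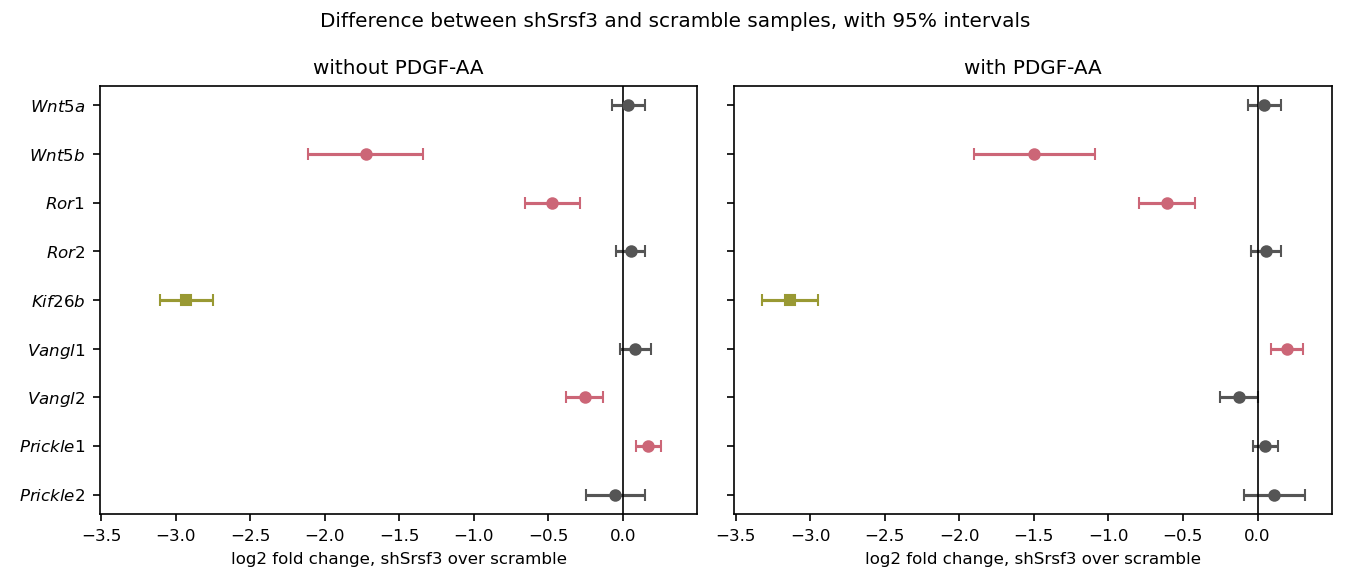
Log2 fold change between shSrsf3 and scramble samples for the 9 members above the filter for low counts, without (left) and with (right) PDGF-AA; bars are 95% intervals, red marks an adjusted p of 0.05 or less, and squares mark *Kif26b*, for which no test is given. *Kif26b* and *Wnt5b* lie beyond -1 in both conditions and *Ror1* at -0.48 and -0.61, with *Wnt5a* and *Ror2* near 0.

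To ask whether the ligand itself altered these genes, +PDGF-AA and -PDGF-AA samples of each line were compared for all members, *Kif26b* included. In scramble cells, 0 of the 9 tested members passed an adjusted p of 0.05 in edgeR, against 4.04% of all genes tested. An unadjusted p under 0.05 was found for 2, *Ror1* and *Prickle1*, beside 2643 of all 15037 genes tested. *Ror1* came closest, with a mean of 9.61 ± 0.665 CPM before and 11.9 ± 0.573 CPM after stimulation (SD, n = 3) and no overlap. Its log2 fold change was 0.30 ± 0.0822 (SE, adjusted p = 0.0565). It passed with DESeq2 (adjusted p = 0.0226), without the filter for low counts (0.00718), and with counts thinned to the lowest total of any sample (0.0466). *Ror1* also passed without scramble -PDGF-AA replicate 3 (0.0210) or shSrsf3 +PDGF-AA replicate 1 (0.0402). It did not pass under the other alternatives, and without the 3 libraries of lower mapping rate its log2 fold change was 0.19 (adjusted p = 0.465). *Kif26b* was at 89.0 ± 5.34 CPM before and 88.7 ± 4.50 CPM after stimulation, a log2 fold change of -0.0052 (95% interval -0.16 to 0.15, adjusted p = 0.985).

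In shSrsf3 cells, 1 of the 9 members, *Prickle1*, passed the test upon PDGF-AA stimulation, against 0.565% of all genes. Its mean was 46.1 ± 0.268 CPM before and 39.97 ± 1.45 CPM after stimulation, and the groups did not overlap (log2 fold change -0.20 ± 0.0383, edgeR adjusted p = 0.0280). The call was lost with thinned counts (adjusted p = 0.0724) and without scramble -PDGF-AA replicate 1 (0.0529) or any of the 6 shSrsf3 samples (0.0851 to 0.156), with log2 fold changes of -0.22 to -0.17 throughout. In scramble cells *Prickle1* differed by -0.084 ± 0.0379 upon stimulation (adjusted p = 0.266). *Kif26b* was at 11.6 ± 0.617 CPM before and 10.04 ± 1.53 CPM after stimulation of shSrsf3 cells (log2 fold change -0.22 ± 0.0911, adjusted p = 0.466), and without shSrsf3 +PDGF-AA replicate 3 its log2 fold change was -0.098. *Ror1* was at 6.95 ± 0.517 and 7.78 ± 0.842 CPM (0.17, 95% interval -0.020 to 0.37, adjusted p = 0.591).

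**Figure D4:**
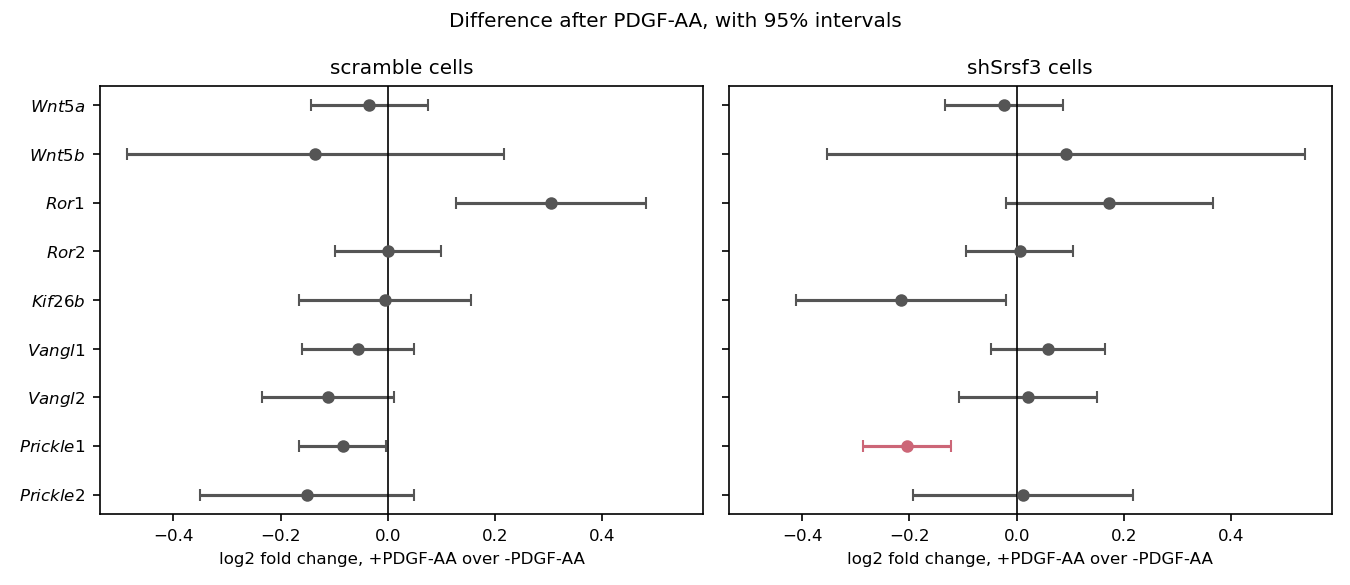
Log2 fold change upon PDGF-AA stimulation of scramble (left) and shSrsf3 (right) cells for the 9 tested members, with 95% intervals; red marks an adjusted p of 0.05 or less. *Prickle1* in shSrsf3 cells, at -0.20, is the marked value, and *Ror1* in scramble cells, at 0.30, has an adjusted p of 0.0565.

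The interaction, the difference between the shSrsf3 effect with ligand and that without, did not pass for any of the 9 members in edgeR or DESeq2. In edgeR 0.0133% of all genes passed. An unadjusted p under 0.05 was found for 1 member (*Prickle1*, -0.12 ± 0.0538, edgeR adjusted p = 0.874), beside 833 of all 15037 genes tested. For *Kif26b* the interaction was -0.21 (95% interval -0.46 to 0.043, adjusted p = 0.874), and it was -0.097 without shSrsf3 +PDGF-AA replicate 3 and -0.077 without the 3 libraries of lower mapping rate. For *Wnt5b* it was 0.23 (-0.34 to 0.79, adjusted p = 0.908), an interval that holds changes of considerable size in either direction. That *Prickle1* passed the ligand test in shSrsf3 cells and not in scramble cells is thus not shown to be a difference between the lines.

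A list of 49 other genes of noncanonical Wnt signaling and planar cell polarity was examined by role, of which 47 were tested. *Fzd10* had no count, and *Celsr3* was at 4 to 21 counts. Without ligand, 26 of the 47 passed an adjusted p of 0.05 between lines, against 45.9% of all genes. Of these, 17 were lower in shSrsf3 samples, against 23.7% of all genes, and 9 were higher, against 22.2%. With ligand 24 passed, against 41% of all genes, with 16 lower against 20.7% and 8 higher against 20.3%. These 24 passed in the same direction in both conditions. The median log2 fold change of the 47 was -0.076 without and -0.091 with ligand. In each condition 4 of the 47 were DE, against 5.75% of all genes without and 5.42% with ligand. All 4 were lower in shSrsf3 samples, against 2.76% of all genes without and 2.57% with ligand. Of these, *Dact1* without ligand (-1.02) and *Fzd1* with ligand (-1.01) were close to the 2-fold minimum.

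In this list, 3 genes were DE in both conditions without overlap between samples, and all 3 fell. The share of all genes that did so in both conditions is not given here. *Wnt4*, another Wnt ligand, fell from 1.57 ± 0.281 to 0.361 ± 0.0558 CPM without ligand (SD, n = 3, log2 fold change -2.10 ± 0.296 SE, edgeR adjusted p = 7.0e-05) and from 1.65 ± 0.178 to 0.543 ± 0.266 CPM with ligand (-1.62 ± 0.300, adjusted p = 6.7e-04). *Fzd3*, a Frizzled receptor used in planar polarity, fell from 7.13 ± 0.567 to 3.36 ± 0.326 CPM without ligand (-1.09 ± 0.102) and from 7.36 ± 0.551 to 3.13 ± 0.301 CPM with ligand (-1.23 ± 0.107). *Dchs2*, a large cadherin of the Fat and Dachsous system, was at 5 to 60 counts per sample and fell by 1.32 and 1.29 on the log2 scale. *Wnt4* was likewise scarce, at 9 to 104 counts per sample, so that both rest on few reads.

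By role, receptors and co-receptors had 7 of 13 tested genes past the test in each condition, 5 lower and 2 higher. Of all genes, 45.9% passed without ligand, with 23.7% lower and 22.2% higher. With ligand 41% of all genes passed, with 20.7% lower and 20.3% higher. The Fat and Dachsous genes had 3 of 4 lower and the genes for turnover of pathway proteins 4 of 6 lower and 1 higher, in both conditions. The cytoskeletal effectors had 5 of 9, with 3 higher and 2 lower in each condition, and the polarity effectors 1 of 3, *Fuz*, which was higher in both. The core partners of Vangl and Prickle had 4 of 10 without ligand (2 lower, 2 higher) and 2 of 10 with ligand (1 lower, 1 higher). *Wnt11*, the other ligand beside *Wnt4*, did not pass.

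**Figure D5:**
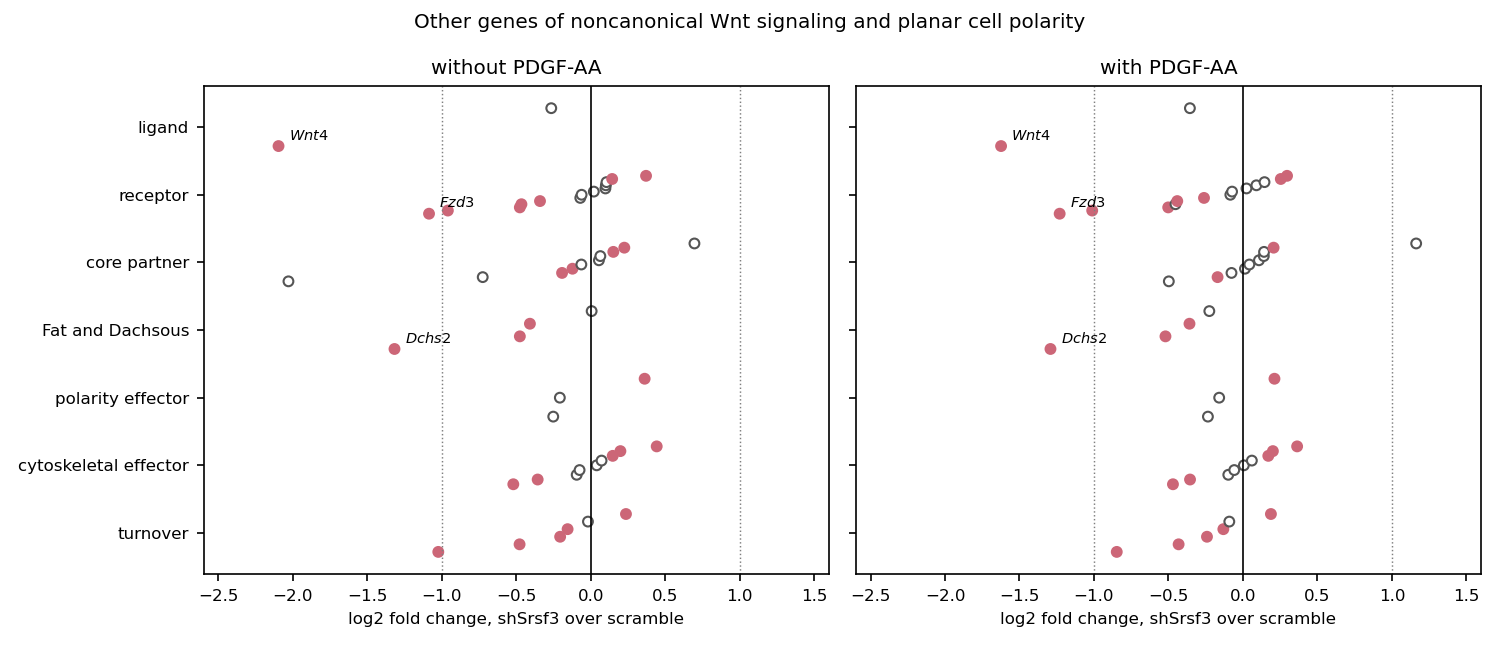
Log2 fold change between shSrsf3 and scramble samples for the 47 tested genes of the wider list, by role, without (left) and with (right) PDGF-AA; filled points have an adjusted p of 0.05 or less and dotted lines mark a 2-fold change. *Wnt4*, *Fzd3*, and *Dchs2* lie beyond -1 in both conditions, and no filled point lies beyond 1.

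Upon PDGF-AA stimulation of scramble cells, 4 of the 47 genes of the wider list passed, against 4.04% of all genes. In shSrsf3 cells 0 passed in edgeR, where 5 had an unadjusted p under 0.05, beside 1420 of all 15037 genes tested. DESeq2, run on this list after the data were seen, called 7 in scramble cells, adding *Fzd2*, *Fzd9*, and *Fat4*. It called 877 of all 15037 genes there, where edgeR called 608. In shSrsf3 cells DESeq2 called 1 gene of the list, *Fzd8*, and 213 of all genes, where edgeR called 85. The values that follow are those of the 4 that edgeR called in scramble cells. *Sdc4*, a heparan sulfate co-receptor, rose from 207 ± 6.32 to 252 ± 6.82 CPM (SD, n = 3, log2 fold change 0.28 ± 0.0416 SE, edgeR adjusted p = 0.00186). *Dvl1*, a cytoplasmic transducer of Wnt signals, rose from 56.2 ± 0.727 to 62.6 ± 0.547 CPM (0.16, adjusted p = 0.0207). *Prickle3*, another Prickle gene, fell from 6.79 ± 0.283 to 4.58 ± 0.325 CPM (-0.57 ± 0.0966, adjusted p = 0.00476), and the receptor *Fzd8* fell from 54.7 ± 1.96 to 41.4 ± 1.32 CPM (-0.40, adjusted p = 0.0165). In shSrsf3 cells the same genes had log2 fold changes of 0.11 (*Sdc4*), 0.021 (*Dvl1*), -0.40 (*Prickle3*), and -0.36 (*Fzd8*), and the interaction did not pass for any of the 4 (adjusted p of 0.807 to 0.966).

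Genes whose pattern over the 12 samples was most like that of *Kif26b* were ranked among 12261 other tested genes with a mean count of at least 50. The 5 highest values of Pearson’s r of log2 CPM were 0.999 for *Sema5a*, 0.998 for *Piezo2*, *Igfbp5*, *Serpine2*, and *Pim3*, and the 3 lowest were -0.999 for *Sorbs2* and *Emilin2* and -0.998 for *Olfml2b*. The 5 genes of highest r differed in the size of the decrease, with log2 fold changes without ligand from -3.09 (*Piezo2*) to -0.78 (*Pim3*). The 3 of lowest r had log2 fold changes in the opposite direction, of 1.93 (*Sorbs2*), 1.32 (*Emilin2*), and 0.71 (*Olfml2b*). Since the 12 samples fall into scramble and shSrsf3 samples, any gene that separated the lines with little spread gives such an r. Over deviations from the mean of each group, where the shift between lines is removed, the 3 highest were *Dclk2* (r = 0.951), *Inpp5f* (0.940), and *Rdh10* (0.934). These are the extremes of 12261 genes over only 12 samples. Among the members, *Wnt5b* had r = 0.961 over samples, in place 478, and -0.11 over deviations. *Prickle1* had -0.50 over samples and 0.759 over deviations, the latter in place 214. Over samples *Ror1* had 0.866, *Vangl2* 0.792, and *Vangl1* -0.793, and over deviations 0.43, 0.15, and -0.37.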

How the data were processed

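The authors sequenced polyA-selected, stranded libraries, trimmed reads with BBDuk, and quantified them with Salmon 1.4.0 against GENCODE M26 on GRCm39. Per the labels and the methods, transcripts were summed per gene with tximport, whose scaling is not given in the sources used here, and the authors deposited expected counts, estimated read pairs per gene that are not scaled to depth. Of these values, 16.3% were not whole. The 12 samples (3 in each of 4 groups, by their labels) had totals of 30958966 to 76123359, which set the precision of scarce genes such as *Wnt5b*. Limits for a count of 0 cover counting error only. Intervals of fold changes rest on SEs that also include the spread between cultures.

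Here, counts were rounded and filtered with filterByExpr (minimum count 10), which kept 15037 of 51490 genes and 9 of the 10 members. edgeR 4.0.16 (trimmed mean of M-values, quasi-likelihood test, all 12 samples, a mean per group) gave log2 fold changes, and p-values were adjusted by the Benjamini-Hochberg method over all tested genes. Called genes had an adjusted p of 0.05 or less, and DE genes a change of at least 2-fold as well. SEs came from the fold change and its F statistic. The test was run on counts simulated with its own fitted spread, which cannot show how it behaves on these data. Levels per length are CPM per kb of the canonical transcript in GENCODE M39, which also gave positions. The members, lists, and tests were chosen with earlier results of these data known. Named were all members, pathway genes DE in both ligand conditions without overlap (up to 4 in each direction), up to 4 called for PDGF-AA, and the genes most like *Kif26b* (5 highest and 3 lowest r of log2 CPM with a prior count of 2, 3 highest over deviations). Genes near *Kif26b* and *Wnt5b* were examined as a description added after values were seen.

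Alternatives were DESeq2 1.42.0, edgeR with RLE factors, no filter, only the 2 groups compared, a replicate block, equal depth (counts thinned to the lowest total), leaving out 3 libraries with a lower mapping rate, leaving out each sample, and, for levels, the union of exons or the library total. R 4.3.3, Python 3.11.15, pandas 2.3.3, numpy 2.4.6, and matplotlib 3.10.9 were used. Same-numbered replicates of different groups had correlations of deviations of -0.142 to 0.201, against -0.343 to 0.239 for other numbers. No pairing by number was seen, and none was used in the main fit. Such correlations cannot tell whether same-numbered cultures were handled together. Shared sequence between genes was measured with 31-base words.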

Additional observations from a re-analysis of the deposited data

How the results depend on the processing

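Of the counts of called and DE genes, those for members between lines stayed within 1.5 times of 4 and 3 except for the 2 called without the 3 libraries of lower mapping rate. With a replicate block, 4 members were called without and 3 with ligand, 0 and 1 upon stimulation of scramble and shSrsf3 cells, and 25 and 24 genes of the wider list, so that the block changed no call of a member. Of all 15037 genes, 6982 and 6223 were called between lines with the block, and 625 and 93 upon stimulation. Upon stimulation of scramble cells 1 member was called with no low-count filter, with DESeq2, and at equal depth, and 0 to 1 when each sample was left out. Of all genes, 1289 of 27138 were called with no filter, 877 of 15037 with DESeq2, and 509 of 14182 at equal depth. When each sample was left out, 243 to 1472 of all genes were called. For the wider list, DESeq2 called 7 genes upon stimulation of scramble and 1 upon stimulation of shSrsf3 cells, in place of 4 and 0. Of all 15037 genes it called 877 and 213, in place of 608 and 85. Upon stimulation of shSrsf3 cells 0 members were called at equal depth and 0 to 1 when each sample was left out, beside 78 and 23 to 168 of all genes. With the union of exons as the length, 6 of the 10 members kept their place in the order of levels in scramble -PDGF-AA samples, the group for which this was computed. The cause of these shifts was not tested. The log2 fold change of *Kif26b* stayed between -3.03 and -2.86 without and between -3.22 and -3.02 with ligand over all alternatives, and that of *Wnt5b* between -1.86 and -1.43 and between -1.64 and -1.34.

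Log2 fold changes near 0 that never passed the test changed sign in places. With the 9 samples of a higher mapping rate these were -0.011 for *Wnt5a* between lines without ligand, 0.0047 for *Wnt5b* upon stimulation of scramble cells, and -0.051 for the interaction of *Ror2*, which was -0.0047 with no filter. *Ror2* upon stimulation of scramble cells was -5.3e-05 with the replicate block and -0.020 at equal depth, and *Vangl2* in shSrsf3 cells was -0.036 at equal depth. *Kif26b* upon stimulation of scramble cells was 0.0026 with RLE factors, 0.0025 with DESeq2, and 0.0057 with only the 2 groups. When each sample was left out, the values of *Wnt5a* ranged from -0.072 to 0.0081 upon stimulation of scramble cells, from -0.069 to 0.013 in shSrsf3 cells, and from -0.039 to 0.048 for the interaction. Those of *Ror2* ranged from -0.014 to 0.016, from -0.031 to 0.059, and from -0.031 to 0.054. In shSrsf3 cells *Wnt5b* ranged from -0.047 to 0.20, *Vangl2* from -0.0098 to 0.051, and *Prickle2* from -0.068 to 0.13. *Kif26b* in scramble cells ranged from -0.043 to 0.057, and *Prickle2* between lines without ligand from -0.12 to 0.0086.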
